A study of Drosophila melanogaster with 25 samples.

Results

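Antisense RNA genes are annotated on the strand opposite to another gene, and FlyBase gives them symbols that begin with asRNA:. Of the 475 such genes in the deposited table of 16060 genes, 50 (10.5%) reached at least 1 RPKM (a read count divided by the length of the gene in kilobases and by the size of the library) in at least 5 of 25 libraries of Drosophila melanogaster brains, and these 50 are described here. They were chosen by these RPKM values, so their level is given with no test. The annotation (Ensembl BDGP6.54, release 115) holds 503 antisense RNA genes, and the others were not analysed here.

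Brains of 4 groups were compared: female controls (n = 5), male controls (n = 7), and flies given photodynamic exposure (PDE) over a long term, of which 7 libraries were female and 6 male. The design text names PDE as a model of oxidative stress, while the labels of the treated samples call it photodynamic therapy, and both were read as 1 treatment. The labels give no strain, age, photosensitiser, light dose or length of exposure. They do not say whether each library came from separate flies or pools, so p-values measure only the spread between these libraries.

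An antisense transcript can pair with the RNA of the gene it overlaps, can interfere with transcription of that gene, and can give double-stranded RNA that Dicer-2 cuts into small interfering RNA. In head-to-head pairs the overlap includes the 5' ends of both genes. In tail-to-tail pairs the 3' ends overlap. Telling the RNA of both strands apart takes a library that keeps the strand, and the sources used here do not say whether the reads were counted by strand.

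The 25 libraries held 8883107 to 58725198 reads each, and 0 pairs of libraries were identical. The summed level of roX1, roX2 and msl-2, genes of male dosage compensation, was 37.2 to 65.5 RPKM in the 12 female libraries and 2031 to 2359 RPKM in the 13 male ones, as the labels give the sex. Neuron markers (5 of 6 listed were in the table) summed to 396 to 473 RPKM and glia markers (5 of 6) to 647 to 1079 RPKM. Retina markers (14 of 14) ranged from 81.7 to 9622 RPKM, with female control 4, male controls 4, 5 and 6 and male PDE 3 above 5000 RPKM. Fat body markers (6 of 6) summed to 95.9 to 5577 RPKM in the female libraries and 38.5 to 104 RPKM in the male ones. Haemocyte markers (6 of 6) summed to 6.98 to 32.1 RPKM, muscle markers (6 of 6) to 2.72 to 63.4 RPKM, testis markers (5 of 6) to 1.72 to 3.6 RPKM and ovary markers (5 of 6) to 1.11 to 2.81 RPKM. In bulk RNA, fewer cells of a type and less RNA per cell cannot be told apart.

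The length behind the RPKM differed by kind of gene. Whole reads were recovered from the steps of the values, which gives the length the authors divided by. For 90.1% of 10338 protein-coding genes with introns it equalled the whole span, introns included. For 372 of 456 noncoding genes with introns (81.6%), and for 56 of 68 antisense RNA genes with introns (82.4%), it equalled the summed introns and left out the exons. Of the 50 genes, 25 had the length of their introns, 23 their span and 2 another length. For this reason levels were compared across libraries rather than between genes. With the same reads divided by summed exons, 45 antisense RNA genes passed the level, 42 of them among the 50. For genes with the length of their introns this changes only the scale. It is no level of the exons, since the reads may be those of the introns alone.

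Most antisense RNA genes had no reads at all, and most of those with reads had bases that no other gene in the table covers. In all 25 libraries 298 of the 475 genes (62.7%) were listed at 0, and 177 (37.3%) were above 0 in at least 1. For each gene the bases counted were taken as its span, or as its introns for a noncoding gene with introns unless its recovered length was the span. They were compared with those of every other gene in the table on either strand. Genes at 0 give no length, so their counted bases are assumed. The span was also assumed for protein-coding genes with another length. Of 300 antisense RNA genes with no base of their own, 284 (94.7%) had 0 reads in all libraries. Of 175 genes with such bases, 161 (92%) had reads. On their own strand, all 475 genes had bases free of other genes, and 177 of those had reads. In 49 genes the introns were fully covered by other genes while at least 50 exonic bases were free, and 47 of these had 0 reads in all libraries.

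The same held outside the antisense RNA genes. Protein-coding genes with no base of their own had reads in 57 of 1017 cases (5.6%), against 11658 of 11977 (97.3%) with such bases. Arr2, the major arrestin that ends the light response of photoreceptors, was an example, picked after its values were seen. Its whole span of 1676 bases is covered by other genes, and it was listed at 0 in all libraries, while ninaE, the rhodopsin of the outer photoreceptors, had 1895442 reads. At a value of 0 in this table, an antisense RNA that is not made and one that lies wholly within other genes cannot be told apart. Of the 50 genes past the level, 40 had bases of their own.

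**Figure D1:**
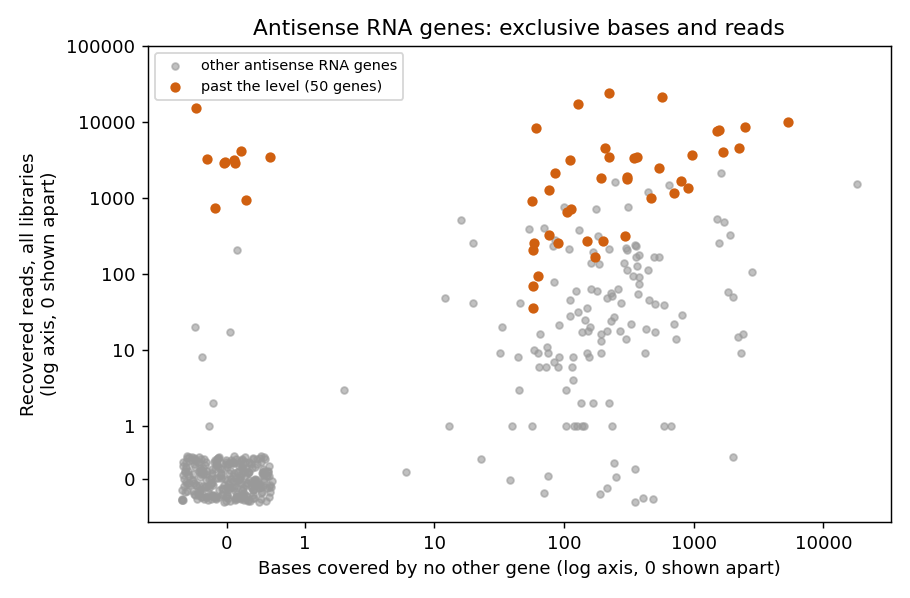
Each point is 1 of the 475 antisense RNA genes, with the number of its bases that no other gene in the table covers on either strand (x, log axis) and its recovered reads summed over 25 libraries (y, log axis); zeros are set apart and spread at random. The 284 genes with neither own bases nor reads fill the lower left corner, and 10 of the 50 genes past the level (orange) have no own bases.

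By arrangement, of 241 antisense RNA genes contained in the gene they overlap, 13 (5.39%) had reads, against 105 of 147 (71.4%) head to head, 35 of 52 (67.3%) tail to tail and 24 of 35 (68.6%) that contain the other gene. The 50 genes comprised 19 head-to-head, 15 tail-to-tail, 9 contained and 7 containing genes. Each shared exonic bases with a protein-coding gene on the opposite strand, called here its partner, which was the gene with the most shared exonic bases. The free bases lay only downstream of the partner for 18 genes and only upstream of it for 17.

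A partner missing from the table went with high values. The main partner of 14 of the 475 genes was not in the table, and 11 of these 14 (78.6%) had reads, against 166 of 461 (36%) with the partner in the table. Of the 50 genes, 42 had their partner in the table and 37 had a partner that passed the same level. By chromosome, 5 of the 10 antisense RNA genes of chromosome 4 (50%), the small, largely heterochromatic autosome, were among the 50, against 12 of 68 (17.6%) on X and 6.93% to 9.2% on the other arms.

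The 50 genes together took 0.0262% to 0.0307% of the reads of a library, with no group apart from the others. The highest by RPKM as deposited was CR45026 (3L:5780102-5780863, minus strand), which is contained in PGRP-LD, a gene of the peptidoglycan recognition family that is not in the table. The length behind its RPKM was 127 bases, its introns, which no other gene in the table covers. PGRP-LD spans them in the annotation, and reads of the 2 genes cannot be told apart there. Its lowest, median and highest RPKM were 175, 182 and 214 in female controls, 167, 178 and 215 in PDE females, 164, 189 and 214 in male controls and 158, 206 and 245 in PDE males. All 4 groups overlapped. CR45026 gave 17175 reads over all libraries. Divided by its 704 exonic bases these give 34.7 RPKM, a change of scale and not a level of its exons.

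CR45600 (3R:15136985-15140121, minus strand), which contains CG3984, had a mean of 159 RPKM over the deposited length of 223 bases, its intron. Divided by its 2914 exonic bases the same reads give 12.2 RPKM, again a change of scale only. CR45612, tail to tail with bbx, an HMG-box gene, had a mean of 53.6 RPKM and the narrow range of 46.7 to 58.9 RPKM. CR43971 and CR44981 followed with 47.8 and 40 RPKM. CR44981 lies within sky, which encodes a GTPase-activating protein of synaptic vesicle traffic.

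CR43885 had a mean of 25.1 RPKM, CR44959 15.8 RPKM and CR44228 12 RPKM. CR44959 overlaps the start of raptor, a subunit of the TORC1 growth complex. None of the counted bases of CR44959 is free of other genes in the table, so its reads cannot be told apart from theirs. CR42254, head to head with the insulator protein gene BEAF-32, had 11.8 RPKM, and CR45789, tail to tail with the bHLH factor gene daughterless (da), had 11.4 RPKM. The partners of 6 of these 10 genes are not in the table, and 7 of the 10 were also among the highest 10 with reads divided by summed exons. Contained in such partners are CR43971 (in CG45071), CR44981 (in sky), CR43885 (in CG46434) and CR44228 (in CG34135). As for CR45026, reads of these genes and of their partners cannot be told apart.

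**Figure D2:**
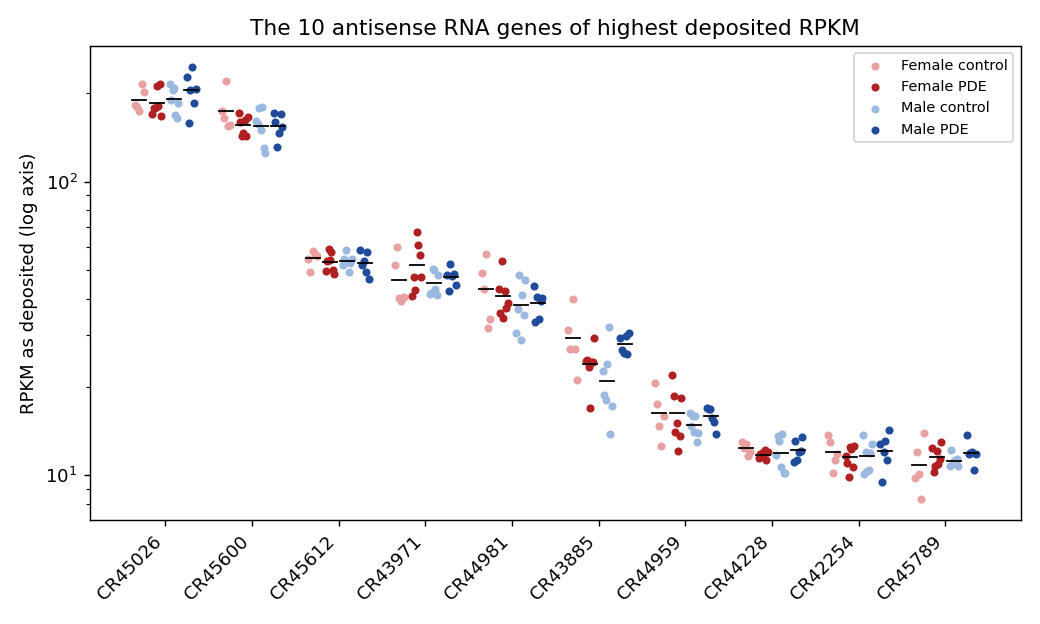
RPKM as deposited (log axis) of the 10 antisense RNA genes with the highest mean, 1 point per library, coloured by group, with a black line at the group mean. The 4 groups overlap for each of the 10 genes, from CR45026 at 158 to 245 RPKM down to CR45789 at 8.33 to 13.9 RPKM.

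At the other end, 33 of the 50 genes reached 1 RPKM in all 25 libraries, while 5 had an average of under 10 reads per library. Just inside the level, CR45190 and CR43481 reached 1 RPKM in 5 libraries each. CR43481 is head to head with Hsp67Ba, a small heat shock protein gene, and ranged from 0 to 2.19 RPKM. Just outside it, the value that had to reach 1 RPKM was 0.964 RPKM for CR43875 and 0.828 RPKM for CR45042. The latter ranged from 0 to 8.04 RPKM. CR45281, which contains the phosphatase gene Alp6, ranged from 0.115 RPKM in male PDE 5 to 2.35 RPKM in female PDE 4, and Alp6 itself was listed at 0 in all libraries.

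Sex set apart a few antisense RNA genes, and those called in controls were all on the X chromosome. In controls 3 of the 50 genes differed between males and females (limma on log2(RPKM + 1), Benjamini-Hochberg adjusted p under 0.05 over 7985 genes), 2 higher and 1 lower in males. Of all genes tested, 4.75% differed, 1.58% higher and 3.17% lower in males, and of the 1315 X-linked ones 19.7%, against 3 of the 12 X-linked genes of the 50. After PDE 2 of the 50 differed, 1 in each direction, against 4.92% of all genes (1.65% higher and 3.27% lower in males) and 21.7% of X-linked ones. The median difference (male minus female, log2) was -0.04 over the 50 and -0.01 over all genes in controls, and 0.03 and -0.01 after PDE. Of the 3 genes, CR45479 and CR45629 passed the level of 1 RPKM only through the sex in which they are high and had to differ. The counts of the 50 are therefore descriptions, and nothing is read from them against the shares of all genes.

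CR45479 was higher in males. It reached 1 RPKM in all 13 male libraries and in 0 of the 12 female ones, so its difference is given with no test. Its RPKM in female controls 1 to 5 was 0.346, 0.449, 0.379, 0.658 and 0.355. In male controls the lowest, median and highest were 2.01, 2.36 and 2.88 RPKM. In PDE females they were 0.401, 0.55 and 0.601 RPKM, and in PDE males 1.47, 1.87 and 2.47 RPKM. Every male library was above every female library.

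The level of CR45479 was 2.4 ± 0.275 RPKM (SD, n = 7) in male controls and 0.437 ± 0.13 RPKM (SD, n = 5) in female controls. The log2 difference was 1.24 (SE 0.08) in controls and 0.90 (SE 0.08) after PDE. The sexes did not overlap for CR45479 and CR45629, in controls and after PDE alike, and overlapped for the others of the 50. Of all genes tested, 2.97% did not overlap in controls and 3.01% after PDE, and since the choice of these genes fixed the direction of both, nothing is read from that.

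CR45479 (X:2173480-2175855, plus strand, 1 exon of 2376 bases) overlaps 1 cytochrome P450 gene of the Cyp4d family and ends before another. It covers the start and most of Cyp4d14 (X:2173415-2175315, minus strand), all but the last bases. The free 540 bases of CR45479, X:2175316-2175855, end 150 bases before Cyp4d2 (X:2176006-2178728), which runs on the same strand as CR45479. Both P450 genes were also higher in males. Cyp4d14, which did not pass the level and was not tested, was at 0.0961 to 0.211 RPKM in female controls and 0.333 to 0.697 RPKM in male controls, and at 0.0669 to 0.244 RPKM and 0.393 to 0.775 RPKM after PDE. Its sexes did not overlap.

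Cyp4d2 was at 5.33 ± 0.376 RPKM (SD, n = 5) in female controls and 12.4 ± 1.04 RPKM (SD, n = 7) in male controls. Its log2 difference was 1.08 in controls (limma with Benjamini-Hochberg adjustment, adjusted p = 1.38e-11) and 0.95 after PDE (adjusted p = 6.52e-11). Antisense to Cyp4d2 and containing it lies CR44690, which shares 39 bases with CR45479. CR44690 stood at 0.589 to 2.21 RPKM in female controls and 0.412 to 2.26 RPKM in male controls, and its groups overlapped. Its log2 difference was -0.12 (limma with Benjamini-Hochberg adjustment, adjusted p = 0.842). Whether the reads of CR45479 come from its own strand or from the region ahead of Cyp4d2 was not tested.

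CR45629 (X:10217627-10219303, plus strand), which contains CG15308, was nearly absent from male libraries. Its RPKM in female controls 1 to 5 was 2.23, 1.01, 1.57, 1.01 and 1.39, and the lowest, median and highest in PDE females were 0.646, 1.12 and 1.61. In male controls it was listed at 0 apart from male control 2 at 0.0462 RPKM, which is 1 read, and in all 6 PDE males at 0. It reached 1 RPKM in 10 libraries, all female, so its difference too is given with no test.

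In reads, CR45629 had 106 in female controls and 1 in male controls, a ratio of 255 after scaling to the library totals (95% interval 44.8 to 1.02e+04, counting error only). After PDE it had 163 in females and 0 in males, at least 38.4-fold higher in females when 3 reads are set over the male group. The log2 difference of males from females was -1.26 in controls and -1.05 after PDE.

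CG15308 was likewise higher in females. The partner had 179 reads in female and 14 in male controls, a ratio of 30.7 (95% interval 17.8 to 57.4), and 297 and 10 after PDE, a ratio of 21 (95% interval 11.2 to 44.2). On the log2(RPKM + 1) scale CG15308 differed by -1.16 in controls. It reached 1 RPKM in female libraries only and had to differ, so this is given with no test. The difference between the changes of CR45629 and CG15308 was -0.09 in controls and -0.01 after PDE. Both genes passed the level only through females and are near 0 in males, which holds their changes close on this scale. A test cannot tell them apart here, and nothing is read from the difference. Fat body markers were also higher in females, 95.9 to 5577 RPKM in female controls against 42.2 to 104 RPKM in male controls, and their part in the difference of CR45629 was not tested.

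CR45009 (X:23007672-23009452, plus strand), tail to tail with the fucosyltransferase gene FucTC, was higher in males by a smaller margin. Its RPKM in female controls 1 to 5 was 3.58, 4.76, 5.12, 3.57 and 3.21. In male controls the lowest, median and highest were 4.6, 5.22 and 5.79 RPKM, and female controls 2 and 3 lay within that range. The log2 difference was 0.31 (SE 0.09, limma with Benjamini-Hochberg adjustment, adjusted p = 0.0376), and 0.27 after PDE (adjusted p = 0.053). FucTC rose more clearly in males, by 0.54 in controls (adjusted p = 0.000113) and 0.60 after PDE (adjusted p = 1.08e-05).

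The changes of CR45009 and FucTC differed by -0.23 in controls (exact two-sided permutation test, p = 0.225, adjusted p = 0.674 over 3 comparisons). These comparisons include those of CR45629 and CG15308. The call of CR45009 was lost in 13 of 34 alternatives, and 8 of these left out a single library: female control 1, 4 or 5, or male control 1, 2, 3, 5 or 6. Without the 5 libraries rich in retina markers its adjusted p was 0.206, for a log2 difference of 0.29 (limma with Benjamini-Hochberg adjustment).

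**Figure D3:**
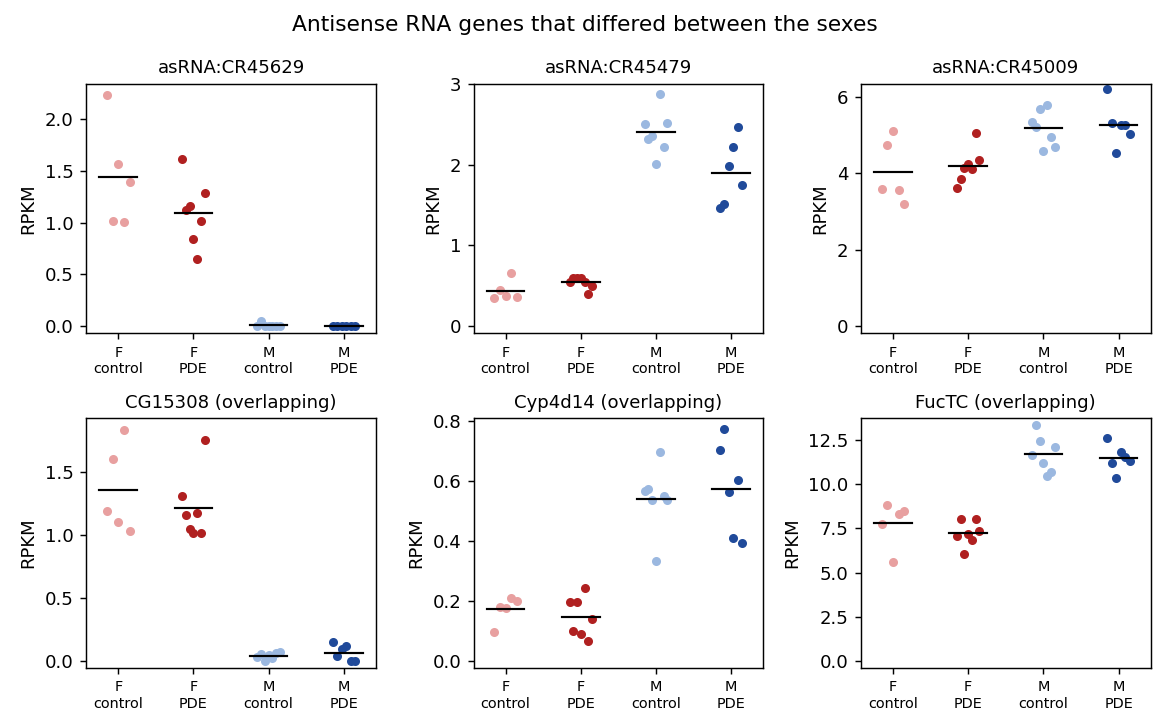
RPKM of the 3 antisense RNA genes that differed between the sexes in controls (top) and of the gene each overlaps (bottom), 1 point per library in the 4 groups (F, female; M, male), with a line at the group mean and axes from 0. CR45629 and CG15308 are near 0 in all males, CR45479 and Cyp4d14 are higher in every male than in every female library, and CR45009 overlaps between the sexes in controls.

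Among the partners that passed the level, 4 of 37 (10.8%) differed between the sexes in controls (CG15308, Cyp4d2, FucTC and betaGlu). After PDE 5 of 37 (13.5%) did (CG15308, CG31089, Cyp4d2, FucTC and Mpv17). Of all genes tested 4.75% and 4.92% differed, and of X-linked ones 19.7% and 21.7%. CG15308 passed the level only through females and had to differ, so nothing is read from these counts. Only CG15308 was lower in males. The partner of a further 8 of the 50 is not in the table, and 5 partners were below the level.

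After PDE no antisense RNA gene passed the test in either sex. None of the 50 was called in females (limma with Benjamini-Hochberg adjustment, smallest adjusted p = 0.156), where 0.0751% of all genes were called, nor in males (smallest adjusted p = 0.701; 0.175% of all genes). Averaged over the sexes the count was again 0 (smallest adjusted p = 0.424; 0.413% of all genes), and 0 of the 50 and 0 of all 7985 genes (0%) changed differently in the sexes. At an unadjusted p under 0.05 there were 4, 3, 6 and 5 of the 50 in these 4 comparisons, against 4.8%, 3.99%, 6.41% and 2.22% of all genes. With limma voom on the recovered reads, which tested 39 of the 50, the count was 0 in each.

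The median change of the 50 genes (log2, PDE minus control) was -0.04 in females and 0.01 in males, beside 0.01 and 0.01 over all genes. Changes ranged from -0.36 to 1.09 in females and from -0.51 to 0.45 in males. The groups did not overlap for 2 of the 50 genes in females, CR44095 and CR45874, where 0.313% of all genes did not overlap. In males they overlapped for all 50, where 0.363% of all genes did not.

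CR44095 (3R:14568962-14569871, plus strand) contains Cys, which encodes a cystatin, an inhibitor of cysteine proteases. Its RPKM in female controls 1 to 5 was 1.02, 0.637, 0.84, 1.5 and 2.57, and the lowest, median and highest in PDE females were 2.78, 3.46 and 5.13. Every PDE female was above every female control. In males the order was the other way for most libraries, with 1.58, 2.12 and 3.52 RPKM in controls and 1.19, 1.33 and 6.11 RPKM in PDE males.

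The female log2 difference of CR44095 was 1.09 (SE 0.25, limma with Benjamini-Hochberg adjustment, adjusted p = 0.156) and the male one -0.25 (adjusted p = 1). The difference between the sexes in that change was -1.33 (SE 0.34, adjusted p = 0.999). Male PDE 6 stood apart at 6.11 RPKM, with the next PDE male at 1.6 RPKM, and its Cys value of 298 RPKM was also the highest of the 25. Without male PDE 6 the female change was 1.09 with an adjusted p of 0.0059, and the difference between the sexes was -1.60 with an adjusted p of 0.0158 (limma with Benjamini-Hochberg adjustment).

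CR44095 rests on few reads, 20 in all female controls and 101 in PDE females, and 1 to 27 per library. Its deposited length of 134 bases is its intron, of which 89 are free of other genes. Cys changed by 0.58 in females (limma with Benjamini-Hochberg adjustment, adjusted p = 0.99) and 0.66 in males (adjusted p = 0.854).

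CR45874, contained in the ribosomal protein gene RpS9, was at 5.08, 5.48, 6.58, 4.96 and 6.28 RPKM in female controls 1 to 5 and at 3.77 to 4.77 RPKM in PDE females. The groups did not overlap, and the log2 difference was -0.34 (SE 0.09, limma with Benjamini-Hochberg adjustment, adjusted p = 0.375). In males the values were 3.74 to 5.97 RPKM in controls and 4.12 to 6.75 RPKM after PDE. CR45874 has no base free of other genes and was 1 of 16 such antisense RNA genes with reads.

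CR43885 lies within CG46434, which is not in the table, and reads of both genes cannot be told apart there. CR43885 had the smallest p in males after PDE among the genes that were higher. Its lowest, median and highest RPKM were 13.8, 18.7 and 31.9 in male controls and 25.9, 28.1 and 30.5 in PDE males. Its log2 difference was 0.45 (SE 0.15, limma with Benjamini-Hochberg adjustment, adjusted p = 0.701), and -0.26 in females (adjusted p = 0.999). CR45214, tail to tail with RIOK2, a kinase of small ribosomal subunit maturation, averaged 0.22 over the sexes (adjusted p = 0.455). CR45520, tail to tail with the mitochondrial sirtuin gene Sirt4, averaged -0.19 (adjusted p = 0.424), and CR44165, head to head with CG15909, -0.25 (adjusted p = 0.515).

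Of the 37 partners that passed the level, 0 were called after PDE in females or in males, where 0.0751% and 0.175% of all genes were. Averaged over the sexes 1 was (2.7%, beside 0.413% of all genes), and nothing is read from a single call. It was Arglu1, which fell by 0.16 (limma with Benjamini-Hochberg adjustment, adjusted p = 0.0313). Its antisense gene CR45007 ranged from 0.623 to 1.58 RPKM and had a difference of -0.04 (adjusted p = 0.999).

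**Figure D4:**
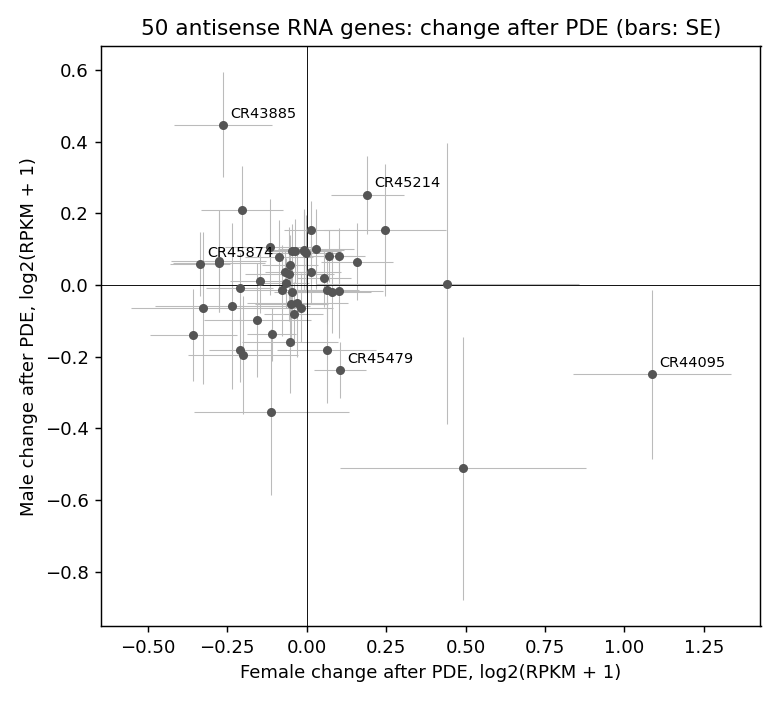
Change of the 50 antisense RNA genes after PDE, in females (x) and males (y), as differences of mean log2(RPKM + 1) with bars of 1 SE from limma. Most lie near 0, CR44095 lies at 1.09 in females and -0.25 in males, and none passed the adjusted threshold.

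Within groups, antisense RNA genes and their partners moved together weakly. Levels were centred on their group means and correlated over the 25 libraries for the 37 pairs with a partner that passed the level. The median Pearson r was 0.211, from -0.218 to 0.903, with 27 of 37 above 0. Without female PDE 3 the median was 0.127. Head-to-head pairs had a median of 0.296 (n = 16), tail-to-tail pairs 0.0822 (n = 12), contained genes 0.166 (n = 4) and containing genes 0.00745 (n = 5). For the same genes and the nearest gene that does not overlap the median was 0.0467 (21 of 37 above 0), and for 1008 pairs of protein-coding genes with shared exonic bases on opposite strands it was 0.294 (789 above 0). These sets share libraries and were not tested against each other.

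Only CR45600 and CG3984 passed the permutation test after adjustment over the 37 pairs. CG3984 ranged from 80.1 to 107 RPKM and CR45600 from 125 to 220 RPKM, and libraries high in the one were high in the other in all 4 groups. Pearson's r was 0.90 and Spearman's rho 0.91 (p = 1e-05 for both, the smallest the permutations can give, adjusted p = 0.00037). Without female control 1 and male control 5, the libraries farthest from the median of CG3984, r was 0.94. Both also went with depth, with r of -0.72 between CR45600 and the log2 library total and -0.56 for CG3984, and the part of depth was not tested. The 223 bases counted for CR45600 all lie downstream of CG3984. Whether their reads come from the strand of CR45600 or from that of CG3984 was not tested.

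CR44095 and Cys had r = 0.65 (rho 0.46, permutation p = 0.00578, adjusted p = 0.0815). Without female PDE 2 and male PDE 6 their r was 0.38, so it rested at least in part on those libraries. CR45501 and parvin, an adaptor of integrin adhesion sites, had r = 0.62 (rho 0.50, permutation p = 0.0132, adjusted p = 0.0945), and 0.49 without 2 libraries. The lowest were CR45874 with RpS9 at -0.22, CR45198 with CG33978 at -0.20 and CR45520 with Sirt4 at -0.15 (permutation p = 0.286, 0.273 and 0.396; adjusted p = 0.557, 0.557 and 0.666).

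**Figure D5:**
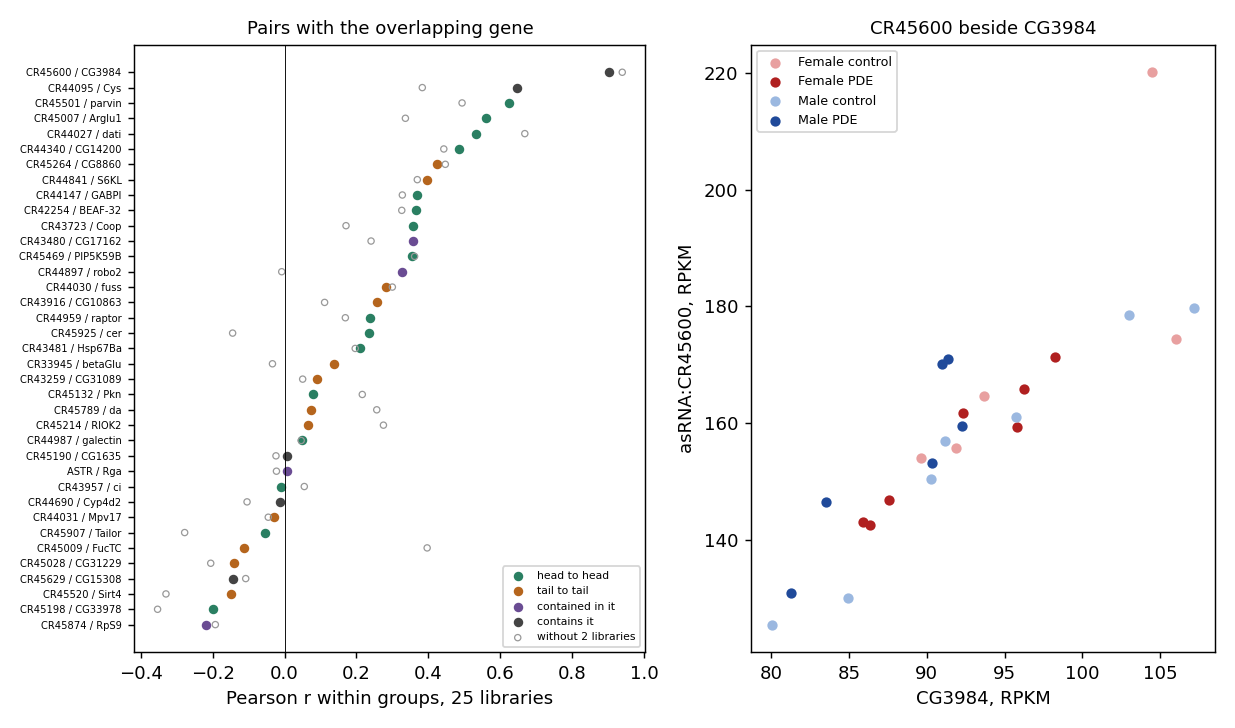
Left, Pearson r within groups between log2(RPKM + 1) of each antisense RNA gene and its partner over 25 libraries, coloured by arrangement, with open circles for r without the 2 libraries farthest from the partner's median. Right, RPKM of CR45600 against CG3984, 1 point per library: the pair at the top of the left panel, r = 0.90.

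CR43480 went with the retina markers more closely than the other antisense RNA genes past the level. It is contained in CG17162 and was chosen here after its values were seen. Its r with the summed retina markers within groups was 0.75, as a description. The next in size were CR44228 at -0.516, CR44340 at -0.422 and CR45479 at 0.415. CG17162 is in the table and spans all of CR43480, so reads of both genes cannot be told apart there. CR43480 stood at 7.41 RPKM in male PDE 3 and at 2.98 to 4.32 RPKM in the other PDE males. In female control 4 it stood at 6.44 RPKM, against 3.77 to 5.09 RPKM in the other female controls. Both libraries are among the 5 rich in retina markers. The other 3 of these, male controls 4, 5 and 6, stood at 5.42, 5.95 and 5.37 RPKM, and male controls 1, 2 and 3 at 4.55, 3.22 and 4.10 RPKM. Male control 7, which is not rich in retina markers (1957 RPKM), stood at 5.62 RPKM, within the range of the rich ones.

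Genes that handle double-stranded and small RNA were measured beside them. Of 12 listed, 10 were tested, and 0 changed after PDE in females, in males or on average. Of all genes 0.0751%, 0.175% and 0.413% did. By sex 1 of the 10 was called in controls and 1 after PDE, beside 4.75% and 4.92% of all genes, and nothing is read from these counts. The gene pasha, partner of Drosha in microRNA processing, was higher in males, at 6.16 ± 0.602 RPKM (SD, n = 7) against 4.94 ± 0.472 RPKM (SD, n = 5) in controls. Its log2 difference was 0.27 in controls and 0.27 after PDE (limma with Benjamini-Hochberg adjustment, adjusted p = 0.046 and 0.0327). Dcr-2, which cuts double-stranded RNA, was at 7.61 ± 0.787 RPKM in female controls (SD, n = 5) and 7.13 ± 0.505 RPKM in PDE females (SD, n = 7), a log2 difference of -0.08 (adjusted p = 0.999).

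Of 18 listed genes of nuclear and cytoplasmic RNA decay, 16 were tested and 0 changed after PDE in females, in males or on average. Of all genes 0.0751%, 0.175% and 0.413% did. By sex 0 of the 16 were called in controls and 1 after PDE, beside 4.75% and 4.92% of all genes, and nothing is read from these counts. Upf1, the helicase of nonsense-mediated decay, was lower in males after PDE by a log2 difference of -0.16 (limma with Benjamini-Hochberg adjustment, adjusted p = 0.04) and had -0.13 in controls (adjusted p = 0.158).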

How the data were processed

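Per the labels' protocols, a Maxwell RSC simplyRNA kit gave the RNA of 25 brain samples, and the SMART-Seq mRNA LP kit gave the libraries. The submitters' processing notes name STAR and dm6. A counter, a strand setting or an annotation is not given in the sources used here. For 16060 genes, the authors deposited RPKM values. All columns were assigned by name (0 left over), and 15997 identifiers were named from Ensembl BDGP6.54 (release 115).

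Whole reads were recovered from the steps of the RPKM values (tolerance 0.001 read) for 13578 of 13581 genes above 0, with 99.82% to 99.93% of the reads of each library. They served to find lengths and depth. Tests ran on log2(RPKM + 1) with limma 3.58.1 in R 4.3.3 (4 groups, trend), for the 7985 genes that reached 1 RPKM in 5 libraries or more, Benjamini-Hochberg adjusted per contrast, adjusted p under 0.05. The fit was tested on simulated data. A log2 difference on this scale understates changes of low genes. Correlations used 100000 permutations of libraries within groups, two-sided.

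The antisense RNA genes and the gene lists were chosen with earlier results of these data known. Genes named were the 10 of highest mean RPKM, those called or with the 2 smallest p values per direction, the 3 highest and lowest correlations, the 2 genes on each side of the level, their partners, and up to 4 of each list. CR45281, CR44690, CR43480, CR45007, the genes listed at 0 and the partners named for their calls were chosen after their values were seen. Coordinates are from the annotation. Sequences were not used here. Alternatives are in the closing section. Counting intervals and the 3-read floor cover counting error only.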

Additional observations from a re-analysis of the deposited data

Results flagged for a closer look

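A library far from the others of its group was found 7 times among 95 groups of the named genes. The rate of about 1 in 20 taken for chance does not hold where all other libraries of a group are at 0. There 1 read is enough for the flag, as for CR45629 and CR45042 below, so nothing is read from the count. CR44095 was at 6.11 RPKM in male PDE 6, with the next PDE male at 1.6 RPKM. CR45874 was at 6.75 RPKM in male PDE 1, with the next at 4.97 RPKM, and CR43481 at 1.72 RPKM in male PDE 4, with the next at 0.522 RPKM. CR45789 was at 12.2 RPKM in male control 2, with the next at 11.4 RPKM. CR45629 was at 0.0462 RPKM in male control 2, which is 1 read, with 0 in the other male controls. CR45042, just outside the level, was at 0.608 RPKM in male control 7 and at 1.91 RPKM in male PDE 6, with 0 in the others of each group.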

How the results depend on the processing

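For antisense RNA genes changed after PDE, 0 stayed 0 under all alternatives in males and on average. Without male PDE 6 it became 1 in females and 1 for the difference between the sexes, where 9 and 1 of all 7963 genes were called. Leaving out single libraries thus gave 0 to 1 for both. In controls 2 to 3 of the 50 differed by sex, beside 176 to 449 of all genes tested. After PDE the 2 of the 50, beside 393 of 7985 genes, became 5 with array weights (664 of all genes). They became 4 with only the groups of the contrast (372 of all genes). With limma voom, where CR45629 was not tested, they became 1 (455 of 8590 genes). With single libraries left out they were 2 to 4, and 4 without female control 1 (456 of 7972 genes). The causes were not tested, and nothing is read from these counts. The number past the level was 39 to 68 under other levels and 45 over summed exons, an alternative chosen after seeing the data. The median correlation was 0.127 to 0.234 with single libraries left out, 0.127 without female PDE 3. With the replicate number as a block, 0 of the 50 were called in each PDE comparison, 2 by sex in controls and 3 by sex after PDE. Of all 7985 genes, 347 were called by sex in controls and 418 after PDE with this block. The same-numbered libraries had correlations of -0.688 to 0.75 in 34 pairs, 16 of them over 0.1, and the best match in another group had the same number in 13 of 68 comparisons, so the numbers were not taken to pair the libraries. Depth limits the 5 genes with under 10 reads per library, at which only large changes could be seen.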
